A study of Mus musculus with 6 samples.

Results

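The thermogenic and beige fat genes described here are 10 genes chosen by symbol, with earlier results of these data known: *Ucp1*, *Prdm16*, *Dio2*, *Elovl3*, *Cox7a1*, *Cox8b*, *Otop1*, *Cited1*, *Kcnk3* and *Fgf21*. All 10 were among the 36144 gene symbols of the authors' table, and 9 of them passed the filter on low counts and were tested with 16069 genes in all. *Fgf21* did not pass. The libraries came from whole inguinal white adipose tissue (iWAT) of female mice aged 10 weeks, 3 of them Cebpa_fl/fl and 3 Cebpa_ASKO, with both inguinal depots of a mouse, lymph nodes removed, in 1 library. All the mice carried floxed *Cebpa* alleles on a C57BL6/J background and were littermates on chow with free access to food. Cebpa_fl/fl mice lacked Cre (AdipoQ-Cre-), and Cebpa_ASKO mice carried AdipoQ-Cre (AdipoQ-Cre+), which deletes *Cebpa* in cells that express adiponectin, brown as well as white adipocytes. Other cells of the depot keep the gene.

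Brown and beige adipocytes make heat by burning fatty acids in mitochondria whose inner membrane is made leaky to protons by uncoupling protein 1. Cold acts through sympathetic nerves, noradrenaline and β-adrenergic receptors, and cyclic AMP then raises both lipolysis and the transcription of *Ucp1*. Inguinal fat is the mouse depot best known for beige adipocytes, which arise in clusters among white adipocytes, and C/EBPα, the factor encoded by *Cebpa*, acts with PPARγ in fat cell differentiation.

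The deleted gene served as a check of the labels. *Cebpa* (chromosome 7, 35119293 to 35121928, GRCm38) had a normalized CPM of 448, 465 and 498 in Cebpa_fl/fl and of 37.7, 45.8 and 37.2 in Cebpa_ASKO, where CPM is the share of a library's estimated counts, scaled to a fixed total and by TMM factors. The log2 fold change was -3.55, with a standard error (SE) of 0.131 and an adjusted p of 0.000163. Here and below, p-values are from the quasi-likelihood test of edgeR, adjusted over all genes by the Benjamini-Hochberg method. Totals ran from 33141769 to 49477671 estimated counts per library. Library Cebpa_fl/fl 1 stood apart in lymphocyte and lymph node genes, whose summed level was 616 CPM there against 71.3 to 112 in the other libraries, although the lymph nodes had been dissected out. Over all genes, Cebpa_fl/fl 2 differed most from the other controls (167.4 and 223.8 chi-square units per degree of freedom, against 62.8 between Cebpa_fl/fl 1 and 3). It was the lowest control in 8 of the 9 tested thermogenic genes, where it was lowest in 39% of genes with a mean log2 CPM of 1 or more. Values without either library are given beside the results they changed most.

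Promoter windows of 250 bases before the RefSeq transcription start (GRCm38.p6) were matched for 8 of the 10 genes, and *Elovl3* and *Kcnk3* had none. Windows of 4 genes are printed to show the sequence before the start of genes that act in the heat-making step or its control: the uncoupling protein *Ucp1*, the cyclic AMP target *Dio2*, and the mitochondrial subunits *Cox7a1* and *Cox8b*. They lie at chr8:83290098-83290347 (*Ucp1*, plus strand), chr12:90739039-90739288 (*Dio2*, minus strand), chr7:30183921-30184170 (*Cox7a1*, plus strand) and chr7:140900447-140900696 (*Cox8b*, minus strand), and each is written 5′ to 3′ in the direction of transcription. Capitals mark matches, on either strand, to the C/EBP core TTGCNNAA, the nuclear receptor core AGGTCA and TGACG, the core of the cyclic AMP response element.
Ucp1: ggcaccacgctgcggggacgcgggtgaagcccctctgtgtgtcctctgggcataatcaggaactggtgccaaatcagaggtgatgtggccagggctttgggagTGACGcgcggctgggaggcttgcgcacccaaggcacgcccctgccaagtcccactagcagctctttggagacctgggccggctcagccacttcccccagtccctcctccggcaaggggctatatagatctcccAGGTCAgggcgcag
Dio2: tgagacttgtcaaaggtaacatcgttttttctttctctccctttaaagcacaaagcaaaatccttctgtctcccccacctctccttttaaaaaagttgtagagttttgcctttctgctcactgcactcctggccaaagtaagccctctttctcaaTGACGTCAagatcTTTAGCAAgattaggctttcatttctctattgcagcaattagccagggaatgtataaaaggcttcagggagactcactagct
Cox7a1: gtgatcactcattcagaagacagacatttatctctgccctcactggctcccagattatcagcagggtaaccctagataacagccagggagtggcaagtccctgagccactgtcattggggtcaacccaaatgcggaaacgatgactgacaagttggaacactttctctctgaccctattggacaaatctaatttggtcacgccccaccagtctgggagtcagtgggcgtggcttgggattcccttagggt
Cox8b: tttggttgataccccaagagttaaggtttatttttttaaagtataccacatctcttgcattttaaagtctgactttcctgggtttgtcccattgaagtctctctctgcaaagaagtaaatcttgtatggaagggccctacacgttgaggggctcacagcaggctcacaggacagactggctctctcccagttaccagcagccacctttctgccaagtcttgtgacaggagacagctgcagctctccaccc
The *Ucp1* window held TGACG from base -147 and AGGTCA from base -14, counted from the start site. The *Dio2* window held TGACG on both strands, from bases -95 and -92, in matches that overlap, and the C/EBP core from base -82. The windows of *Cox7a1* and *Cox8b* held none of these letters. Among 32851 mouse windows of this length, 9.6% held TTGCNNAA, 14% AGGTCA and 17.8% TGACG. Of the windows not printed, *Fgf21* held TGACG from base -68, 1 of 3 windows of *Cited1* held AGGTCA from base -217 and TGACG from base -33, and those of *Otop1* and *Prdm16* held none.

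None of the 9 tested thermogenic genes was called at an adjusted p below 0.05, against a background of 5.23% of all genes (840 of 16069), with 1.39% (223) higher and 3.84% (617) lower in Cebpa_ASKO. The background count itself was 508 without Cebpa_fl/fl 1, 502 without Cebpa_fl/fl 3, 311 without Cebpa_ASKO 1 and 363 without Cebpa_ASKO 2. Adjusted p-values of the thermogenic genes ran from 0.113 to 0.89. At an unadjusted p below 0.05 there were 2, *Elovl3* and *Cox7a1*, where 19.8% of all genes passed. Log2 fold changes were above 0 for 4 genes and below 0 for 5, with a median of -0.19, against 0.02 over all genes. *Cox7a1* and *Otop1* were higher in all Cebpa_ASKO libraries than in any control, which 12.9% of all genes were, and *Elovl3* was lower in all of them, which 13.2% of all genes were (26.1% for either direction). Without Cebpa_fl/fl 1, a choice made after the data were seen, 4 of the genes (*Ucp1*, *Cox7a1*, *Cox8b* and *Otop1*) were higher with no overlap (16.7% of all genes) and 1 lower (16.6%). Cebpa_fl/fl 1 was the highest control in 7 of the 9 genes, but in 27.1% of genes with a mean log2 CPM of 1 or more. Its removal therefore favours the higher side in these genes, and 16.7% is not a matched background. No such count was made without Cebpa_fl/fl 2. DESeq2 called 1 of the genes, *Elovl3*, as lower, where it called 10.2% of all genes, 3.79% higher and 6.45% lower.

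**Figure D1:**
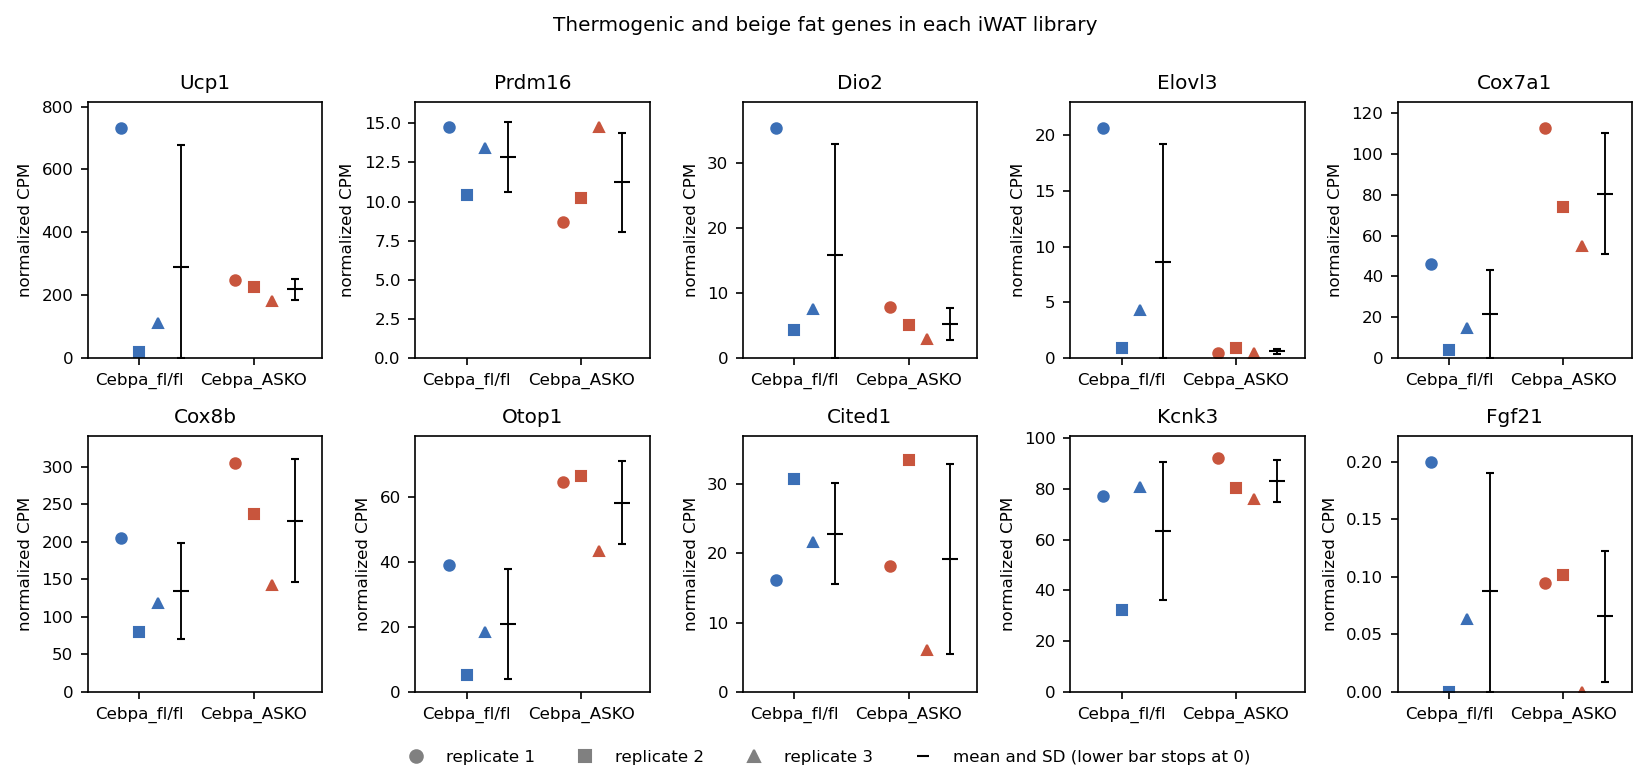
Normalized CPM of the 10 thermogenic and beige fat genes in each iWAT library (y axis, starting at 0, a scale for each gene), with Cebpa_fl/fl in blue and Cebpa_ASKO in red, replicates by marker shape, and the mean with its SD beside the points. The control points of *Ucp1*, *Elovl3*, *Cox7a1* and *Otop1* spread from the highest in replicate 1 to the lowest in replicate 2, and only *Cox7a1* and *Otop1* (higher) and *Elovl3* (lower) have Cebpa_ASKO points wholly apart from the controls.

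*Ucp1* encodes the uncoupling protein itself (chromosome 8, 83290352 to 83298452, plus strand). It had 733, 19.4 and 112 CPM in the controls and 248, 224 and 181 CPM in Cebpa_ASKO. The Cebpa_ASKO values lay close together, between the highest control and the other 2 controls, so the groups overlapped. Means were 288 ± 388 and 217 ± 34.2 CPM (SD, n = 3 each), which gave a log2 fold change of -0.41 (SE 1.07, adjusted p = 0.89). The direction was not stable. Without Cebpa_fl/fl 2 the log2 fold change was -0.98 (adjusted p = 0.468). Without Cebpa_fl/fl 1 it was 1.73 (adjusted p = 0.317), and every Cebpa_ASKO library was then above both controls. With all 6 libraries it was also above 0 in limma fits on log2(TPM + 1) and log2(TPM + 0.1), at 0.92 and 0.94, in limma without a filter at 0.92, with the replicate number as a block at 0.83 and with a muscle covariate at 1.15, and none of these was called. All *Ucp1* counts came from the single annotated transcript, from 914 to 32905 of them per library, so counting error was small beside the spread between control mice. In bulk tissue, fewer cells of a type and less RNA per cell cannot be told apart, for this and every gene below.

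*Prdm16* and *Dio2* act on the programme rather than in the heat-making step. *Prdm16* encodes a transcriptional coregulator that drives brown and beige identity (chromosome 4, 154316125 to 154636873, minus strand). It had 14.8, 10.4 and 13.4 CPM in the controls and 8.68, 10.2 and 14.8 CPM in Cebpa_ASKO, and the groups covered much the same range. Its log2 fold change was -0.19 (SE 0.233, adjusted p = 0.733). *Dio2* encodes the type 2 deiodinase, which makes active thyroid hormone inside the cell and is a classic target of adrenergic signalling in brown fat (chromosome 12, 90724552 to 90738438, minus strand). It had 35.4, 4.26 and 7.56 CPM in the controls and 7.77, 5.0 and 2.94 CPM in Cebpa_ASKO. One control value stood far above the other 5 libraries, which overlapped. The log2 fold change was -1.59 (SE 0.805, adjusted p = 0.341), and -0.18 (adjusted p = 0.91) without Cebpa_fl/fl 1. Without Cebpa_fl/fl 2 it was -2.06 (adjusted p = 0.149).

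*Elovl3* encodes an elongase of very long chain fatty acids that is induced in brown fat by cold (chromosome 19, 46131897 to 46135694, plus strand). It had 20.7, 0.911 and 4.30 CPM in the controls and 0.444, 0.842 and 0.471 CPM in Cebpa_ASKO. Every Cebpa_ASKO library was below every control, but Cebpa_ASKO 2 and Cebpa_fl/fl 2 nearly met, at 33 and 43 counts. Means were 8.64 ± 10.6 and 0.586 ± 0.223 CPM (SD, n = 3 each), which gave a log2 fold change of -3.87 (SE 1.11, unadjusted p = 0.0108, adjusted p = 0.113 by edgeR). The call changed with a single library and with the tool: the adjusted p was 0.0246 without Cebpa_fl/fl 2 (log2 fold change -4.42), and 0.00968 with DESeq2. Without Cebpa_fl/fl 1 the log2 fold change was -2.15 (adjusted p = 0.215). Reads were divided between 2 protein-coding transcripts that differ in length, with 36.54% to 100% on Elovl3-201, so only their sum was used.

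*Cox7a1* and *Cox8b* encode subunits of complex IV, the last enzyme of the respiratory chain, in the isoforms of brown fat, heart and skeletal muscle. *Cox7a1* (chromosome 7, 30184144 to 30186078, plus strand) had 45.9, 4.03 and 14.7 CPM in the controls and 113, 74.0 and 54.7 CPM in Cebpa_ASKO. The lowest Cebpa_ASKO library was above the highest control. Means were 21.6 ± 21.8 and 80.7 ± 29.9 CPM (SD, n = 3 each), which gave a log2 fold change of 1.90 (SE 0.787, unadjusted p = 0.0476, adjusted p = 0.247 by edgeR), and 3.10 (adjusted p = 0.0746) without Cebpa_fl/fl 1. Without Cebpa_fl/fl 2 the log2 fold change was 1.39 (adjusted p = 0.203). *Cox8b* (chromosome 7, 140898945 to 140900446, minus strand) had 205, 80.2 and 119 CPM in the controls and 305, 237 and 142 CPM in Cebpa_ASKO. The highest control lay among the Cebpa_ASKO values. Its log2 fold change was 0.76 (SE 0.399, adjusted p = 0.36), and 1.19 (adjusted p = 0.187) without Cebpa_fl/fl 1, the control that overlapped. Without Cebpa_fl/fl 2 it was 0.48 (adjusted p = 0.511).

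Skeletal muscle RNA moved with genotype, and both subunits are also made in muscle. The summed level of 25 skeletal muscle genes was 824, 1140 and 967 CPM in the controls and 3837, 7259 and 2543 CPM in Cebpa_ASKO, a ratio of means of 4.66 (exact two-sided permutation p = 0.1, the smallest that 3 against 3 libraries allow), and 16 of the 25 were called higher. No gene of that list was at 0 in every library. Muscle RNA was highest in replicate 2 of each genotype and lowest in Cebpa_fl/fl 1 and Cebpa_ASKO 3. *Cox7a1* was highest in replicate 1 of each genotype and lowest in Cebpa_fl/fl 2 and Cebpa_ASKO 3. The part of muscle RNA in the values of *Cox7a1* and *Cox8b* was not tested beyond a fit with a covariate. With the muscle share as a covariate the log2 fold changes were 3.24 for *Cox7a1* and 0.84 for *Cox8b* (adjusted p = 0.998 for both). That fit called no gene at all (948 at an unadjusted p below 0.05). As the muscle share did not overlap between the genotypes, the fit cannot tell it apart from genotype well.

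*Otop1* and *Kcnk3* encode ion channels. *Otop1*, a proton channel found in brown fat (chromosome 5, 38275972 to 38304217, plus strand), had 38.9, 5.28 and 18.6 CPM in the controls and 64.6, 66.4 and 43.4 CPM in Cebpa_ASKO. All the Cebpa_ASKO values were above all the controls. Means were 20.9 ± 16.9 and 58.1 ± 12.8 CPM (SD, n = 3 each), which gave a log2 fold change of 1.47 (SE 0.628, adjusted p = 0.259), and 2.28 (adjusted p = 0.114) without Cebpa_fl/fl 1. Without Cebpa_fl/fl 2 the log2 fold change was 1.0 (adjusted p = 0.169). The annotation tags this gene as lying at an error of the reference genome. All its counts fell on transcripts annotated as noncoding (95.55% to 100% on Otop1-203), and both protein-coding models were at 0 in every library. *Kcnk3* encodes the potassium channel TASK1, which is enriched in brown and beige adipocytes (chromosome 5, 30588170 to 30625271, plus strand). It had 77.1, 32.3 and 80.9 CPM in the controls and 92.2, 80.5 and 76.2 CPM in Cebpa_ASKO. A single control was low and the other 5 libraries overlapped. Its log2 fold change was 0.39 (SE 0.326, adjusted p = 0.593), and 0.06 without Cebpa_fl/fl 2.

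*Cited1*, a transcriptional coactivator used as a beige marker (chromosome X, 102247381 to 102252181, minus strand), had 16.2, 30.6 and 21.6 CPM in the controls and 18.1, 33.4 and 6.08 CPM in Cebpa_ASKO. The highest and the lowest library were both Cebpa_ASKO. Its log2 fold change was -0.25 (SE 0.561, adjusted p = 0.869), 0.01 without Cebpa_fl/fl 2 and 0.16 without Cebpa_ASKO 3, so it had no stable direction. *Cited1* is also expressed in mammary epithelium, whose 15 marker genes summed to 1946, 1189 and 2850 CPM in the controls and 3523, 3566 and 3406 CPM in Cebpa_ASKO, with 0 called higher and 1 lower of 14 tested. The part of mammary epithelium in the *Cited1* values was not tested. *Fgf21* encodes a hormone released by liver and by activated brown fat (chromosome 7, 45613886 to 45615490, minus strand). It had 9, 0 and 3 estimated counts in the controls and 3, 4 and 0 in Cebpa_ASKO. With 12 and 7 counts in all, a difference was not detectable at this depth: 3 counts over a group correspond to 0.0215 CPM in the controls and to 0.026 CPM in Cebpa_ASKO.

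**Figure D2:**
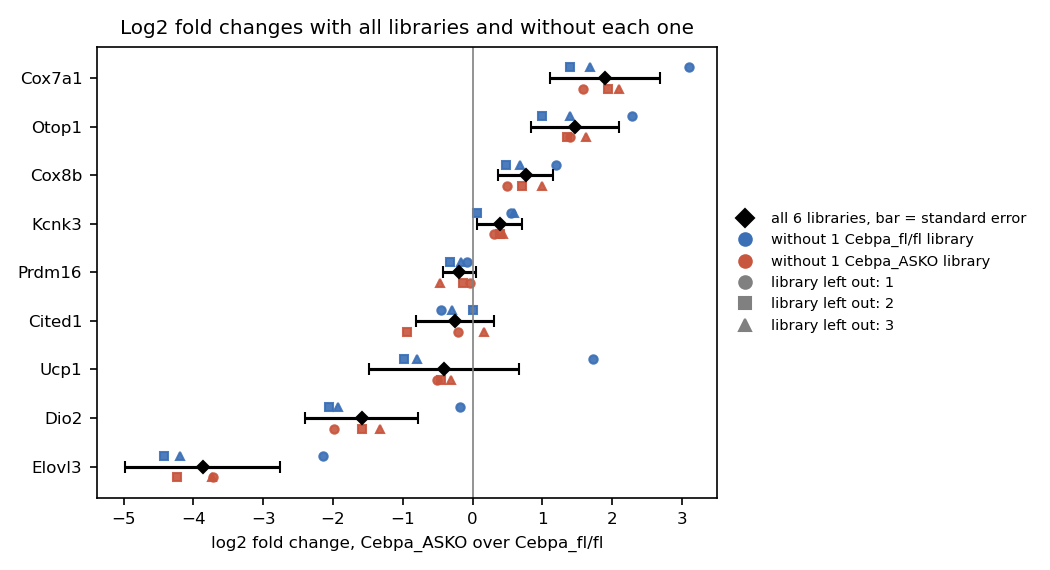
Log2 fold changes (x axis, Cebpa_ASKO over Cebpa_fl/fl) of the 9 tested thermogenic genes with all 6 libraries (black, bars are standard errors) and with each library left out (colour for genotype, marker shape for replicate). Leaving out Cebpa_fl/fl 1 moved *Ucp1* from -0.41 to 1.73 and *Dio2* from -1.59 to -0.18, while *Elovl3* stayed below 0 and *Cox7a1*, *Otop1*, *Cox8b* and *Kcnk3* stayed above 0. Leaving out Cebpa_fl/fl 2 moved *Ucp1* to -0.98 and *Dio2* to -2.06.

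The control mice differed from each other in these genes far more than in most. Over the 3 Cebpa_fl/fl libraries the highest CPM was 37.8 times the lowest for *Ucp1*, 22.7 times for *Elovl3*, 11.4 times for *Cox7a1*, 8.3 times for *Dio2* and 7.37 times for *Otop1*. Among 13090 genes whose mean log2 CPM was 1 or more, the median was 1.25 times, and a range as wide as that of *Ucp1* was seen in 0.183% of them, as that of *Elovl3* in 0.328%, *Cox7a1* in 0.642%, *Dio2* in 0.886% and *Otop1* in 0.985%. *Cox8b* (2.55 times), *Kcnk3* (2.5 times), *Cited1* (1.89 times) and *Prdm16* (1.42 times) varied less. The 3 Cebpa_ASKO libraries differed by 1.37 times for *Ucp1*, 1.9 times for *Elovl3*, 2.07 times for *Cox7a1*, 2.64 times for *Dio2* and 1.53 times for *Otop1*. The range was wider in the controls for 7 of the 9 genes, where it was wider for 60.7% of the 13090 genes above. The exceptions among the 9 were *Cited1* (5.49 times in Cebpa_ASKO) and *Prdm16* (1.71 times). The 2 controls left without Cebpa_fl/fl 1 still differed by 5.77 times for *Ucp1*, a range matched by 0.497% of genes, by 4.72 times for *Elovl3*, 3.66 times for *Cox7a1* and 3.53 times for *Otop1*, and by 1.78 times for *Dio2*. No test of this difference in spread was made.

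The order of the control mice was shared. Cebpa_fl/fl 1 was highest, Cebpa_fl/fl 3 in the middle and Cebpa_fl/fl 2 lowest in 7 of the 9 genes. This order was seen in 15.7% of the 13090 genes whose mean log2 CPM was 1 or more. *Cited1* ran the opposite way, and *Kcnk3* was highest in Cebpa_fl/fl 3 and lowest in Cebpa_fl/fl 2. *Cidea*, a lipid droplet gene abundant in brown fat and no member of the group, followed the same order in the controls, with 248, 33.8 and 119 CPM, and had 732, 524 and 343 CPM in Cebpa_ASKO, above every control (log2 fold change 2.00, adjusted p = 0.166, and 2.80 with 0.0948 without Cebpa_fl/fl 1). The same order held in 11 of the 28 tested genes enriched in brown and beige fat (39.3%), and *Slc36a2*, *Cox4i2* and *S100b* were among those with another order. These genes come from the same libraries, so their orders are not independent observations.

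**Figure D3:**
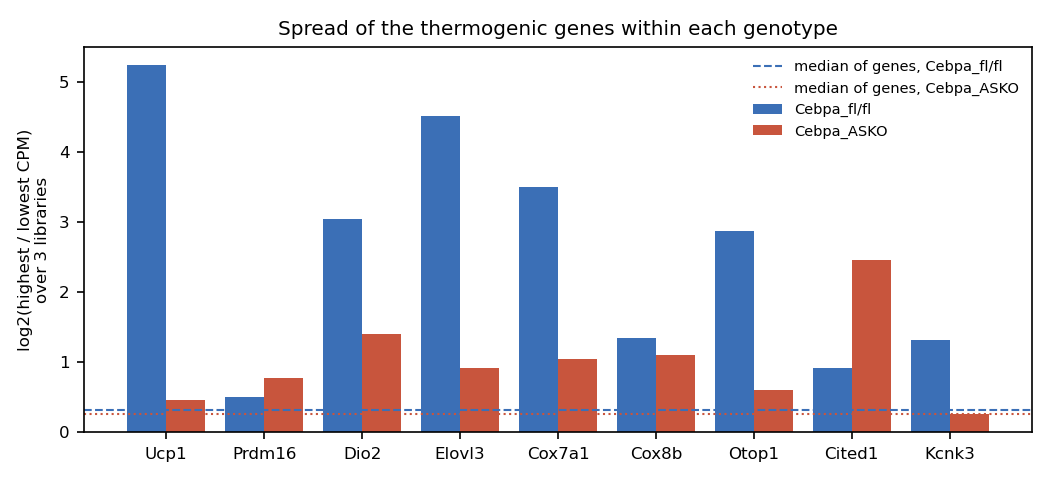
Spread of the 9 tested thermogenic genes within each genotype, as log2 of the highest over the lowest normalized CPM of 3 libraries (y axis), with dashed and dotted lines at the median of 13090 genes. *Ucp1* spans 5.24 in Cebpa_fl/fl (blue) and 0.46 in Cebpa_ASKO (red), against gene medians of 0.32 and 0.26.

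Levels per transcript length, in TPM, placed *Cox8b* first in both genotypes, with a median of 776 TPM in Cebpa_fl/fl and 1698 TPM in Cebpa_ASKO. In the controls *Ucp1* (median 91.5 TPM, range 16.6 to 560) and *Cox7a1* (80.7 TPM) came next, then *Cited1* (36.1), *Kcnk3* (24.3), *Otop1* (7.66), *Elovl3* (3.45), *Prdm16* (2.75), *Dio2* (1.6) and *Fgf21* (0.0982 TPM). Every pair of neighbours in that order overlapped across the 3 control libraries except *Dio2* and *Fgf21*. In Cebpa_ASKO *Cox7a1* (median 442 TPM, range 328 to 581) came before *Ucp1* (191 TPM, range 162 to 196) with no overlap, followed by *Kcnk3* (28.8), *Cited1* (28.3), *Otop1* (24.4), *Prdm16* (2.54), *Dio2* (1.13), *Elovl3* (0.437) and *Fgf21* (0.138 TPM). There only *Kcnk3* with *Cited1* and *Cited1* with *Otop1* overlapped as neighbours.

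Ratios to *Ucp1* within a library, a choice made after the data were seen, set the level of each gene per length against that of *Ucp1*. *Elovl3* had 0.0268, 0.044 and 0.0377 TPM per TPM of *Ucp1* in the controls and 0.00184, 0.00347 and 0.00269 in Cebpa_ASKO, and the lowest control was 7.72 times the highest Cebpa_ASKO value. These control ratios spanned a far narrower range than *Elovl3* itself did. *Dio2* had ratios of 0.0125, 0.0568 and 0.0175 in the controls and 0.00809, 0.00577 and 0.00421 in Cebpa_ASKO, lower in every library. *Cox7a1* went the other way, with 0.424, 1.4 and 0.882 against 3.04, 2.25 and 2.02, higher in every Cebpa_ASKO library. *Otop1* (0.026, 0.133 and 0.0837 against 0.128, 0.145 and 0.118) and *Cox8b* (2.24, 33 and 8.48 against 9.7, 8.65 and 6.27) overlapped. Over 16068 genes, 1.63% were lower and 0.18% higher relative to *Ucp1* without overlap. *Prdm16*, *Cited1* and *Kcnk3* overlapped too. These ratios are not read without Cebpa_fl/fl 1. *Ucp1* itself was 16.6 and 91.5 TPM in Cebpa_fl/fl 2 and 3 and 162 to 196 TPM in Cebpa_ASKO. A gene at an equal level in every library would therefore be lower relative to *Ucp1* there with no overlap. The wide range of *Ucp1* in the controls enters every one of these ratios, and no test was made of them.

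The genes whose log2 CPM followed that of *Ucp1* most closely over the 6 libraries, among 13089 genes, were *Zdhhc18* (Pearson r = 0.998), *Wdr73* (0.981), *Gramd1a* (0.98), *Cwc27* (0.976) and *Dhrs11* (0.975). They varied much less than *Ucp1*, and *Zdhhc18* ran only from 32.7 to 42.9 CPM. Among the thermogenic genes r with *Ucp1* was 0.837 for *Otop1*, 0.827 for *Kcnk3*, 0.818 for *Cox7a1*, 0.793 for *Cox8b*, 0.643 for *Dio2*, 0.473 for *Elovl3*, 0.31 for *Prdm16* and -0.348 for *Cited1*. After each genotype's mean was taken off, r was 0.987 for *Elovl3*, 0.975 for *Cox7a1*, 0.974 for *Otop1*, 0.925 for *Dio2*, 0.826 for *Kcnk3*, 0.822 for *Cox8b*, 0.459 for *Prdm16* and -0.286 for *Cited1*. No r was computed without Cebpa_fl/fl 1. These values describe 6 libraries, most of whose range in *Ucp1* lies among the 3 controls, and carry no test.

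The rest of the thermogenic pathway, 104 tested genes in 5 lists, held 4 genes called higher and 13 called lower in Cebpa_ASKO (16.3% called, median log2 fold change 0.09, against 5.23% and 0.02 for all genes). These lists were written with earlier results of these data known. The number called was 11 without Cebpa_fl/fl 3, 8 without Cebpa_ASKO 1 and 9 without Cebpa_ASKO 2. Among 27 tested receptors and signals, 1 was called higher and 5 lower, with a median of 0.01. *Adrb3* encodes the adrenergic receptor through which noradrenaline acts on mouse adipocytes. It had 275, 450 and 458 CPM in the controls and 3.61, 2.88 and 4.69 CPM in Cebpa_ASKO (log2 fold change -6.72, standard error 0.317, adjusted p = 0.000317). The receptor transcript was lower in each of the Cebpa_ASKO libraries whose *Ucp1* overlapped the controls. *Klb*, the coreceptor for FGF21, had 53.4, 61.0 and 75.4 against 14, 10.1 and 15.2 CPM (log2 fold change -2.27, adjusted p = 0.00198). *Prkar2b*, a regulatory subunit of protein kinase A, fell by 1.21 on the log2 scale (adjusted p = 0.00728), and *Fndc5*, the precursor of irisin, rose by 1.43 (adjusted p = 0.0075). *Rxra* fell by 0.54 (adjusted p = 0.0295) and *Adora2a*, an adenosine receptor, by 1.21 (adjusted p = 0.0457), but *Rxra* lost its call in 4 and *Adora2a* in 5 of the 6 fits that leave out a library.

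Of 32 regulators of the programme, none was called higher and 3 lower (9.38%, median -0.04). *Nrip1*, a corepressor of mitochondrial genes, fell by 0.98 on the log2 scale (adjusted p = 0.00282). *Pparg*, the nuclear receptor needed by every adipocyte, fell by 0.78 (adjusted p = 0.0125), a call lost without Cebpa_ASKO 1. *Zfp423*, which restrains the beige programme in white adipocytes, fell by 0.55 (adjusted p = 0.0374), and this call was lost without any 1 of the 6 libraries. *Ppargc1a*, the coactivator that drives mitochondrial biogenesis and *Ucp1*, had 11.4, 7.29 and 10.4 against 8.34, 7.94 and 8.15 CPM, with overlapping groups (log2 fold change -0.25, adjusted p = 0.528). The list count was 1 without Cebpa_ASKO 1.

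Of 28 tested genes enriched in brown and beige fat, 1 was called higher and 4 lower (17.9%, median 0.31), and the number was 3 without Cebpa_fl/fl 3 or Cebpa_ASKO 3 and 2 without Cebpa_ASKO 1 or 2. *Ffar4*, a receptor for long chain fatty acids, had 23.4, 23.4 and 22 against 6.40, 5.34 and 6.80 CPM (log2 fold change -1.89, adjusted p = 0.000783). *Slc36a2*, an amino acid transporter of the adipocyte surface, had 270, 168 and 274 against 69.5, 65.6 and 76.0 CPM (log2 fold change -1.75, adjusted p = 0.0051). *Cyp2b10*, a cytochrome P450, was low throughout, with 0.551 to 1.63 CPM in the controls and 0 to 0.0255 CPM in Cebpa_ASKO (adjusted p = 0.0142, lost without any 1 Cebpa_ASKO library). *Cox4i2*, a complex IV isoform, fell by 1.16 on the log2 scale (adjusted p = 0.0299, kept in 1 of the 6 fits that leave out a library). *S100b* rose from 15.6, 8.48 and 5.70 to 128, 97.9 and 44.8 CPM (log2 fold change 3.18, adjusted p = 0.0185), a call lost without Cebpa_fl/fl 3, Cebpa_ASKO 1 or Cebpa_ASKO 2. *S100b* also marks Schwann cells, and the summed level of 11 Schwann cell and nerve genes was 278 to 381 CPM in the controls and 432 to 548 CPM in Cebpa_ASKO (1 of 8 tested was called higher, *S100b* itself). The part of nerve in the *S100b* values was not tested.

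**Figure D4:**
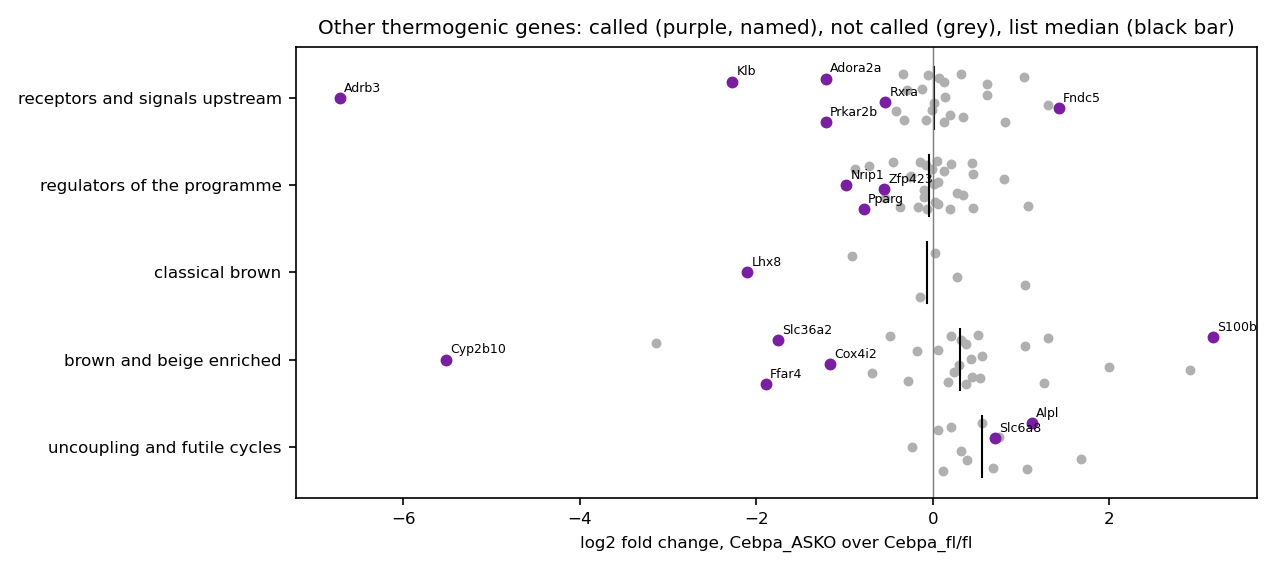
Log2 fold changes (x axis, Cebpa_ASKO over Cebpa_fl/fl) of the other thermogenic genes in 5 lists (y axis), with called genes in purple and named, other genes in grey and a black bar at each list's median. *Adrb3* at -6.72 and *Klb* at -2.27 stand out among receptors and signals, while the medians of the lists lie between -0.06 and 0.56.

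Other routes to heat, 13 tested genes of uncoupling and futile cycles, held 2 called higher and 0 lower (15.4%, median 0.56). *Alpl*, a phosphatase of the futile creatine cycle, had 12.9, 12.7 and 17.4 against 30.3, 36.9 and 26.5 CPM (log2 fold change 1.12, adjusted p = 0.0171), and *Slc6a8*, the creatine transporter, rose by 0.71 on the log2 scale (adjusted p = 0.0288). Both calls were lost without Cebpa_ASKO 1, Cebpa_ASKO 2 or Cebpa_fl/fl 1, and *Gk* was called in the last of these fits. Of the list, *Alpl* alone was called without Cebpa_fl/fl 3. *Ckb*, the creatine kinase of that cycle, had a log2 fold change of 0.06 (adjusted p = 0.906). Among 6 tested genes of classical brown fat, *Lhx8* alone was called, with 3.32, 4.77 and 4.24 against 1.27, 0.689 and 0.920 CPM (log2 fold change -2.10, adjusted p = 0.0109).

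Paralogs of the thermogenic genes gave 1 call among 18 tested (5.56%, median 0.02). It was *Kcnk2*, a relative of *Kcnk3*, with 10.5, 16.4 and 15.7 CPM in the controls and 0.317, 0.664 and 0.426 CPM in Cebpa_ASKO (log2 fold change -4.90, adjusted p = 0.000783). Without Cebpa_fl/fl 3 there were 2 calls. *Ucp2* and *Ucp3* had log2 fold changes of -0.23 and 0.12, *Elovl5* and *Elovl6* of -0.04 and -0.53, and the ubiquitous complex IV subunits *Cox7a2* and *Cox8a* of 0.26 and 0.01, and none of these was called. Of 17 tested complex IV subunits other than *Cox7a1* and *Cox8b*, 15 had a log2 fold change above 0 and 2 below, with a median of 0.17 and *Cox4i2* as the single call (5.88%), which was lost in 5 of the 6 fits that leave out a library.

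The 16 genes of the integrated stress response, a programme that raises *Fgf21* in stressed cells, held 1 called higher and 4 lower (31.2%, median 0.34). *Cebpg* rose by 1.36 on the log2 scale (adjusted p = 0.00316), while *Psat1* fell by 1.40 (adjusted p = 0.00237), *Phgdh* by 2.50 (adjusted p = 0.00426), *Asns* by 1.03 (adjusted p = 0.00759) and *Sesn2* by 0.86 (adjusted p = 0.0295, kept in 1 of the 6 fits that leave out a library). The authors place *CEBPG* in the same human locus as *CEBPA*, and a local effect of the deleted allele on *Cebpg* was not tested. *Fgf21* itself stayed at or below 9 counts in every library.

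Markers of the cells in the depot differed between the genotypes beside these genes. The summed level of 12 adipocyte genes was 44242, 55036 and 51005 CPM in the controls and 15759, 13692 and 13890 CPM in Cebpa_ASKO, with 7 of 12 called lower and none at 0 in every library, so the libraries still held adipocyte RNA. *Adipoq*, which encodes adiponectin, fell by 2.93 on the log2 scale (adjusted p = 0.000783). None of the 9 thermogenic genes was called lower with edgeR on all libraries, while *Elovl3* was called with DESeq2 and without Cebpa_fl/fl 2. Smooth muscle and pericyte genes summed to 766 to 961 CPM in the controls and 1062, 1150 and 1009 CPM in Cebpa_ASKO, endothelial genes to 455 to 543 and 329 to 442 CPM, and macrophage genes to 1068 to 2901 and 1734 to 2386 CPM. Slow skeletal muscle genes summed to 4.23 to 12.2 CPM in the controls and 6.62 to 18.9 CPM in Cebpa_ASKO, which overlapped. The part of these other cells in the values of the thermogenic genes was not tested.

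**Figure D5:**
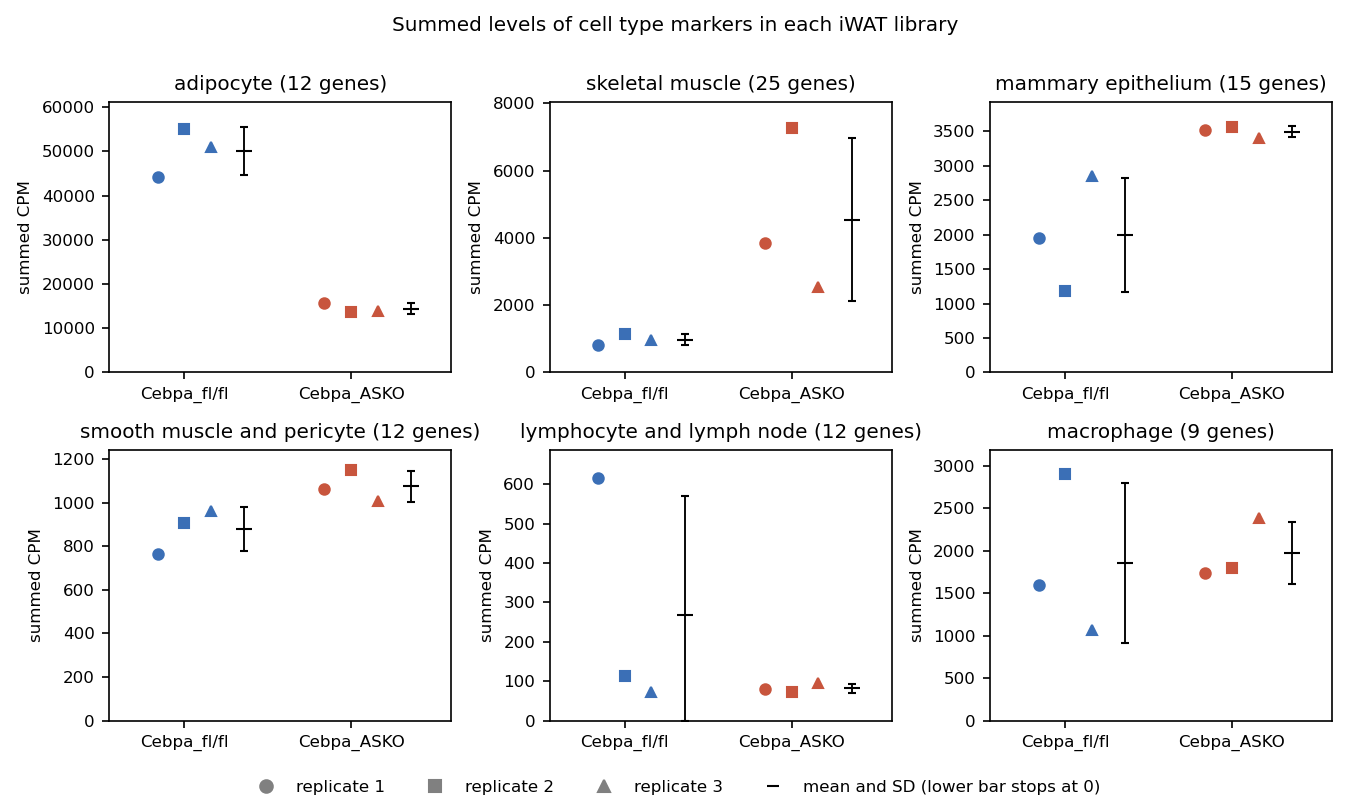
Summed normalized CPM of marker genes for 6 cell types in each iWAT library (y axis, starting at 0, a scale for each panel), with Cebpa_fl/fl in blue, Cebpa_ASKO in red, replicates by marker shape, and the mean with its SD. Adipocyte markers are lower and skeletal muscle markers higher in every Cebpa_ASKO library, and lymphocyte markers reach 616 CPM in Cebpa_fl/fl 1 alone.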

How the data were processed

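RNA from whole iWAT of 3 Cebpa_fl/fl and 3 Cebpa_ASKO mice was sequenced from poly-A libraries. Replicates are separate mice and differed by far more than sampling noise (from 25.9 to 223.8 chi-square units per degree of freedom). The authors deposited kallisto estimated counts, with effective lengths, per transcript, and TPM per transcript and gene symbol. The submitters' processing notes name kallisto 0.44.0 and the builds GRCm38.p6 and GRCh38.p12, and the transcript annotation is not given in the sources used here. The 10 genes, the other gene lists and the rule for named genes were chosen with earlier results of these data known. Named were all 10 genes, the called genes of each list by smallest adjusted p (up to 4 in each direction), fixed paralogs and regulators, and the 5 genes most like *Ucp1*. *Ckb*, *Gk* and *Adora2a* were added after their values were seen.

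Transcripts were matched to GENCODE M21 (116816 of 118489, 98.6%), and estimated counts were summed per symbol and rounded (99.5% to 99.6% of each library's total). Main test: edgeR 4.0.16 in R 4.3.3, quasi-likelihood, TMM scaling, default filter, Benjamini-Hochberg over 16069 genes, called at an adjusted p below 0.05. Scripts were tested on simulated data. Alternatives used DESeq2 1.42.0, limma 3.58.1 on log2(TPM + 1) and log2(TPM + 0.1), other scalings and filters, a length offset, a muscle covariate and each library left out. Standard errors are from the quasi-likelihood fits and include the spread between mice. Floors (3 counts) cover counting error only. Sequences were taken from RefSeq.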

Additional observations from a re-analysis of the deposited data

How the results depend on the processing

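The 9 tested genes and the lists were refitted under 17 alternatives. Of 151 values for the thermogenic genes, 9 reversed in sign and 2 passed the threshold, both *Elovl3*. *Dio2* and *Elovl3* stayed below 0 and *Cox7a1*, *Cox8b*, *Otop1* and *Kcnk3* above 0 in every alternative that gave a value. *Elovl3* did not pass the TPM filter of the limma fits. The log2 fold change of *Ucp1* was -0.41 and became 0.92 with limma on log2(TPM + 1), 0.94 on log2(TPM + 0.1), 0.92 without a filter, 0.83 with the replicate number as a block, and 1.15 with the muscle covariate, and ran from -0.98 to 1.73 with single libraries left out. *Prdm16* became 0.55 and *Cited1* -3.67 with the muscle covariate, which did not overlap between the genotypes and is hard to tell apart from them. *Cited1* ran from -0.94 to 0.16 with libraries left out, 0.01 without Cebpa_fl/fl 2 and 0.16 without Cebpa_ASKO 3. Members called numbered 1 with DESeq2 and 0 to 1 with libraries left out, against 0. All genes called numbered 1802 with DESeq2, 359 with limma without a filter, 370 with the replicate block, 0 with the muscle covariate (948 at an unadjusted p below 0.05) and 311 to 922 with libraries left out, against 840. In the lists of other thermogenic genes the counts were 26, 9, 9, 0 and 8 to 19 in the same order, against 17. The muscle ratio ran from 3.27 to 5.68 with libraries left out. Of 136 counts for single lists, 39 moved by more than 1.5 times. Without Cebpa_fl/fl 1, a choice made after the data were seen, 4 of the genes were higher in every Cebpa_ASKO library (16.7% of all genes) and 1 lower (16.6%). As that library was the highest control in 7 of the 9 genes, leaving it out favours the higher side, and these shares are not a matched background. The causes were not tested.

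Genotypes share replicate numbers, but no pairing of the libraries by them was seen. Deviations of same-numbered libraries correlated at 0.066, 0.028 and -0.201, and not every library correlated best with its own number. Deviations from means of 3 libraries cannot exclude a pairing. The block therefore stands as an alternative fit only. With 3 libraries a group, the spread of the controls in *Ucp1*, *Dio2* and *Elovl3* limits the precision of their fold changes, and the counts of *Fgf21* are too few for a comparison.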
